A study of Mus musculus with 6 samples.

Results

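Vascular endothelial cells line the vessels of the heart, and 10 genes that mark these cells or carry the angiopoietin-Tie signal were measured in sham and tail-suspended mouse hearts. They are Vwf, Pecam1, Cdh5, Cldn5, Emcn, Egfl7, Tek, Tie1, Angpt1 and Angpt2. They were chosen by name, with earlier results of these data known, from 28909 gene names on the array. Each was read from a single probe. The hearts came from male C57BL/6 mice. In tail-suspension, which unloads the hind limbs to simulate weightlessness, mice aged 10 weeks were hung by the tail for 28 days. Sham mice were kept in the same space with the same feeding and were not suspended. The labels also give an age of 11 weeks for every mouse, which cannot hold together with both of those values. RNA from cardiac muscle of 3 mice per group was hybridised to 6 Agilent 1-colour arrays. No gene was deleted and no transgene or drug was used in these groups.

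The endothelial genes fall into several roles. Vwf encodes von Willebrand factor, a clotting protein that endothelial cells store in Weibel-Palade bodies and release. Pecam1, Cdh5 (VE-cadherin) and Cldn5 (claudin-5) encode proteins of the contacts between endothelial cells, Emcn encodes a sialomucin of the endothelial surface, and Egfl7 encodes a secreted endothelial protein. Angiopoietin-1 (Angpt1), which comes largely from cells around the vessel, activates the receptor tyrosine kinase Tie2 (Tek) and favours a quiet, tight endothelium. Angiopoietin-2 (Angpt2) is made by endothelial cells themselves and can oppose that signal, while Tie1 has no well established ligand of its own and modulates Tie2.

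All 10 probes were well above background on all 6 arrays, so all 10 genes were tested and none entered through 1 group alone. No spot of these probes carried an outlier flag. Pecam1 had 2 spots, which were averaged, and the others had 1. The probes are 60 bases long, and their places below are those the array files give on mm9. The Tek and Tie1 probes are shown because the receptors are related and a probe could in principle read both. Capitals mark the bases that are identical in the best ungapped alignment, 39 of 57 aligned bases, with a longest identical run of 8.
Tek: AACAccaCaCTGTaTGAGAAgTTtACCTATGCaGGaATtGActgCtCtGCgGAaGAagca
Tie1: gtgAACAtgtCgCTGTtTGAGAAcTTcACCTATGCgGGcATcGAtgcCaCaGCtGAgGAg
The Tek probe lies at chr4:94540624-94540683 on the plus strand and the Tie1 probe at chr4:118144132-118144191 on the minus strand. Whether either probe also bound the other transcript was not tested.

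The probes of Vwf, of the ligands and of Pecam1 are shown because the strongest change, the widest spread between mice and a contact gene with a positive log2 fold change that did not pass the test rest on them. The first 30 bases are given for Vwf, Angpt1 and Angpt2, and all 60 for Pecam1, in lower case because no part of them is singled out.
Vwf: caagtgaggcctgtgcagctacagcggatt
Angpt1: catgtgtgtagcaatttgatacgcatagct
Angpt2: acctatcttgatggcttagtttttaatggc
Pecam1: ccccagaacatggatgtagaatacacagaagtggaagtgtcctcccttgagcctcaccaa
The whole probes lie at chr6:125636551-125636610 on the plus strand for Vwf, chr15:42256335-42256394 on the minus strand for Angpt1, chr8:18691458-18691517 on the minus strand for Angpt2 and chr11:106540864-106540923 on the minus strand for Pecam1. The exon or UTR that each probe covers is not annotated in the files used here.

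Tail-suspended mouse hearts had higher Vwf and lower Cldn5, Emcn, Egfl7 and Tie1 than sham hearts, while Pecam1, Cdh5, Tek, Angpt1 and Angpt2 did not pass the test. Thus 1 of the 10 genes rose and 4 fell at an adjusted p under 0.05 in limma, with Benjamini-Hochberg adjustment over 28032 probes. The array as a whole moved a good deal, so these counts have to be read against it. The 10 genes and the lists below were chosen with earlier results of these data known. The shares over all genes are therefore a background for the counts and not a test of them. Of 17140 genes, 21.1% passed in either direction, 10.5% as higher and 10.6% as lower. The groups did not overlap for 6 of the 10 genes, against 46.3% of all genes. The median log2 fold change was -0.35 over the 10 genes and -0.02 over all genes tested. Levels in whole heart tissue cannot tell fewer endothelial cells from less RNA per cell.

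**Figure D1:**
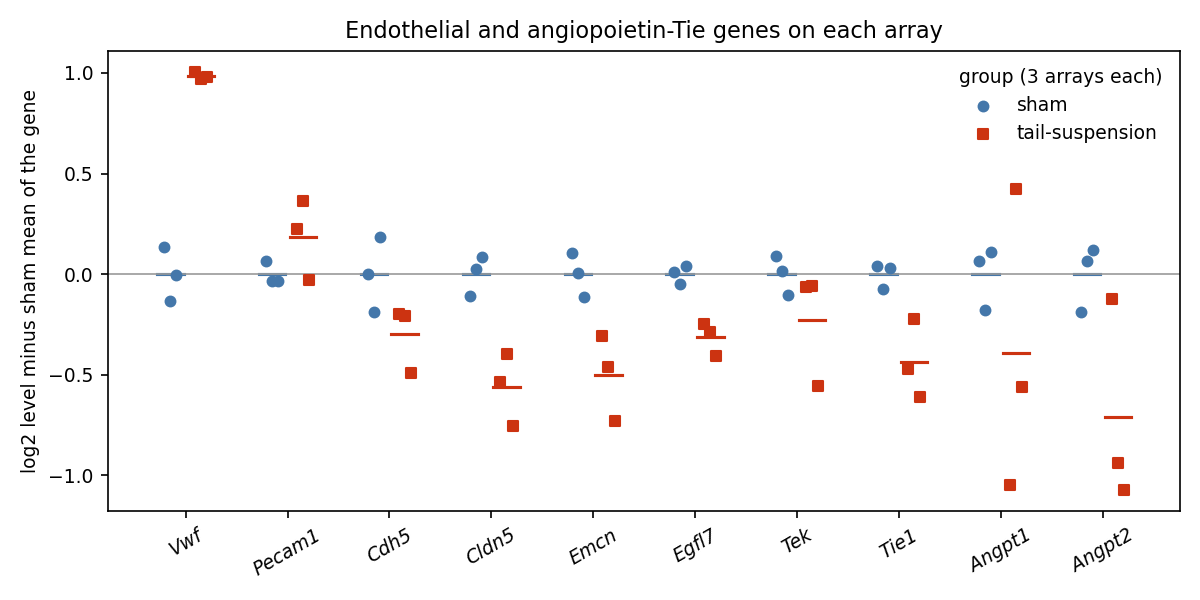
Log2 level of each gene on each array, relative to the mean of the 3 sham arrays for that gene; points are arrays, circles sham and squares tail-suspension, and bars are group means. The 3 tail-suspension points lie together near 0.98 for Vwf, below the sham points for Cdh5, Cldn5, Emcn, Egfl7 and Tie1, and far apart for Angpt1 and Angpt2.

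Vwf was the clearest of the 10. Sham hearts gave processed intensities of 5884, 4856 and 5015, and tail-suspended hearts gave 11383, 12312 and 12355. Every tail-suspended heart lay above every sham heart, and the 3 tail-suspended hearts were close to each other. On a log2 scale set to 0 at each array's 75th percentile, sham hearts averaged 4.07 ± 0.13 and tail-suspended hearts 5.05 ± 0.02 (SD, n = 3 per group). The rise was 1.98-fold (95% interval 1.69 to 2.32), or 0.99 on the log2 scale with a standard error (SE) of 0.10 (limma, adjusted p = 0.00286). It lay at percentile 96.8 of the fold changes of all genes tested. An exact permutation test gave a two-sided p of 0.1, the smallest that 3 arrays against 3 allow. Any gene whose groups do not overlap gets this value, Cdh5 among them, so it adds nothing to the lack of overlap. Vwf remained past the threshold in all 19 alternatives fitted for it, 1 of which rests on a single tail-suspension array. Its log2 fold changes lay between 0.87 and 1.05. Some alternatives change only the filter, the error or the test and leave the fold change as it was.

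Of the genes of endothelial contacts, Cldn5 fell and Cdh5 and Pecam1 did not pass the test, and whether their changes differ was not tested. Cldn5 seals the tight junction, and its intensity was 3040, 3324 and 3270 in sham and 2400, 2927 and 2275 in tail-suspended hearts. All 3 tail-suspended hearts were lower, and the log2 fold change was -0.56 (limma: SE 0.12, adjusted p = 0.0237), from 3.36 ± 0.10 to 2.80 ± 0.18 (SD, n = 3 each). Cdh5, the cadherin of the adherens junction, had intensities of 3580, 3130 and 3830 in sham and 3309, 3648 and 2987 in tail-suspension. After scaling to each array the tail-suspended hearts were all lower, but the log2 fold change of -0.30 (limma: SE 0.13, adjusted p = 0.155) did not pass, with a 95% interval from -0.62 to 0.02. Pecam1, an adhesion molecule of the cell border, had intensities of 663, 615 and 582 in sham and 783, 958 and 726 in tail-suspension. Its scaled levels overlapped between groups, and the log2 fold change was 0.19 (limma: SE 0.12, 95% interval -0.10 to 0.47, adjusted p = 0.297).

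Emcn, the surface sialomucin of capillary and venous endothelium, fell. Its intensity was 1204, 1118 and 971.5 in sham and 956, 954 and 790.0 in tail-suspended hearts, all 3 of them below the sham hearts. The log2 fold change was -0.50 (limma: SE 0.13, adjusted p = 0.0413). Egfl7, a matrix-bound protein of endothelial cells, had intensities of 37236, 35540 and 35818 in sham and 33042, 35672 and 32710 in tail-suspension. The unscaled intensities overlapped, the scaled levels did not, and the log2 fold change was -0.31 (limma: SE 0.09, adjusted p = 0.0480).

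The receptors were both lower on average, and Tie1 passed the test. Tie1 had intensities of 1773, 1633 and 1657 in sham and 1317, 1738 and 1321 in tail-suspended hearts. Its scaled level was lower in all 3 of them, from 2.43 ± 0.06 to 2.00 ± 0.20 (SD, n = 3 each), and the log2 fold change was -0.44 (limma: SE 0.12, adjusted p = 0.0464). Tek, which encodes Tie2, had intensities of 668, 629 and 548 in sham and 636, 707 and 499.6 in tail-suspension. The groups overlapped, and the log2 fold change was -0.23 (limma: SE 0.15, 95% interval -0.59 to 0.14, adjusted p = 0.325). That Tie1 passed and Tek did not does not show that they differ: within each array the log2 ratio of Tie1 to Tek lay 0.21 lower in tail-suspension, with an SD of 0.12 over the sham arrays and of 0.18 over the tail-suspension arrays, and this difference was not tested.

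The ligands varied most between tail-suspended mice. Angpt1, the Tie2 agonist, had intensities of 1548, 1301 and 1504 in sham and 758, 2336 and 1175 in tail-suspension. Replicate 2 was above every sham heart and replicates 1 and 3 were below them, and the log2 fold change was -0.39 (limma: SE 0.35, 95% interval -1.23 to 0.44, adjusted p = 0.447). Without tail-suspension replicate 2 it was -0.80 (adjusted p = 0.0317 by limma), the only 1 of the 19 alternatives in which Angpt1 passed. The other fits with an array left out gave adjusted p between 0.485 and 0.892, and a log2 fold change of -0.07 without tail-suspension replicate 1. Angpt2, the context-dependent antagonist, had intensities of 208, 246 and 242 in sham and 229.9, 145 and 132 in tail-suspension. Replicate 1 lay within the sham range and replicates 2 and 3 below it, and the log2 fold change was -0.71 (limma: SE 0.25, adjusted p = 0.0896). Without tail-suspension replicate 1 it was -1.01 (adjusted p = 0.0160 by limma), and with normexp background correction, which models the local background, it was -0.57 (adjusted p = 0.0433 by limma). These were the only 2 of the 19 alternatives in which Angpt2 passed. The other fits with an array left out gave adjusted p between 0.135 and 0.224. The mouse that stood apart was thus not the same for the 2 ligands.

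**Figure D2:**
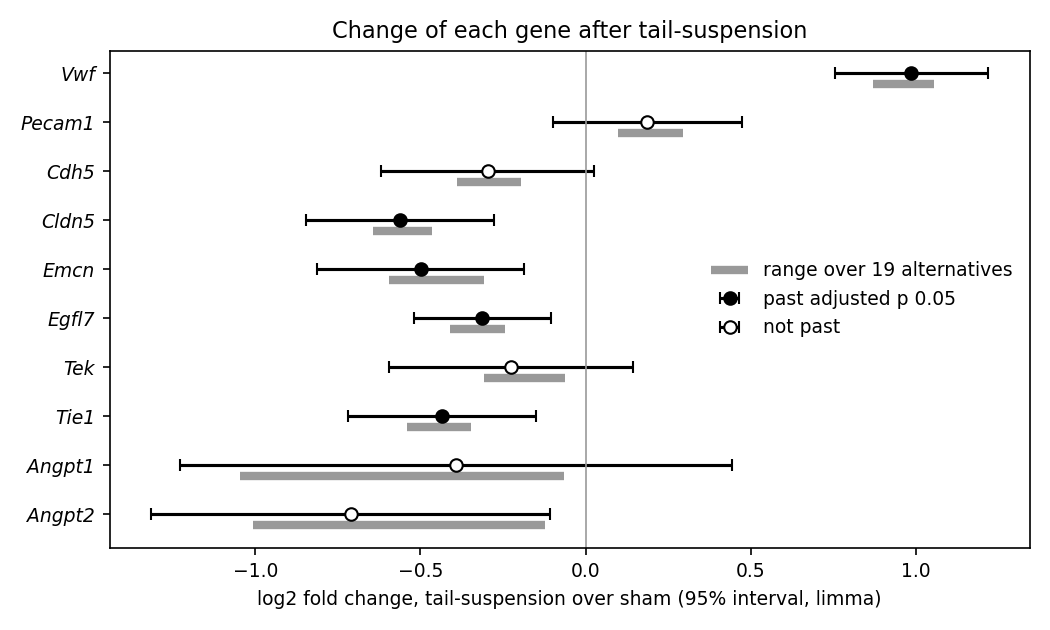
Log2 fold change of each gene, tail-suspension over sham, with its 95% interval from limma; filled circles passed an adjusted p of 0.05, and grey bars span the 19 alternatives. The Vwf bar stays between 0.87 and 1.05, and no bar crosses 0. Alternatives that change only the filter, the error or the test cannot widen a bar.

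The 4 falls were close to the threshold. Of the 19 alternatives, Cldn5 passed in 10, Emcn in 11, Egfl7 in 9 and Tie1 in 9, always as lower. Leaving out 1 array at a time, Cldn5 and Tie1 passed only without tail-suspension replicate 2 (adjusted p = 0.0193 and 0.0194 by limma), Emcn only without tail-suspension replicate 1 (adjusted p = 0.0470), and Egfl7 in none of the 6 fits (adjusted p between 0.0674 and 0.145). All sham arrays and tail-suspension replicate 1 lie in 1 row of the slide and the other arrays in the next. With the row as a block, the comparison is of tail-suspension replicate 1 alone with the sham arrays, and that single array is assumed to vary like the others, whose spread gives the error. The log2 fold change was then 1.01 for Vwf (adjusted p = 0.0439 by limma), -0.53 for Cldn5 (adjusted p = 0.186), -0.31 for Emcn (adjusted p = 0.344), -0.25 for Egfl7 (adjusted p = 0.331) and -0.47 for Tie1 (adjusted p = 0.222). When the fit was blocked on replicate number, Cldn5 (adjusted p = 0.0584 by limma), Egfl7 (adjusted p = 0.109) and Tie1 (adjusted p = 0.0970) did not pass.

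Ratios between genes on the same array do not depend on the scaling of the array. Relative to Cdh5, Vwf was higher by 1.20, 1.18 and 1.47 on the log2 scale in the tail-suspended hearts, against -0.19 to 0.14 in the sham hearts. Pecam1 relative to Cdh5 was higher by 0.42, 0.57 and 0.46, against -0.22 to 0.15 in sham. Hence Pecam1, which did not pass alone, was higher relative to Cdh5 in all 3 tail-suspended hearts. Cldn5 relative to Cdh5 was lower by a mean of 0.27 and did not overlap with sham, and Emcn relative to Cdh5 overlapped. The log2 ratio of Angpt2 to Angpt1 was 0.92, -1.37 and -0.51 in the tail-suspended hearts, all outside the sham range of -0.25 to 0.24 but on both sides of it. These ratios are given as descriptions without a test.

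**Figure D3:**
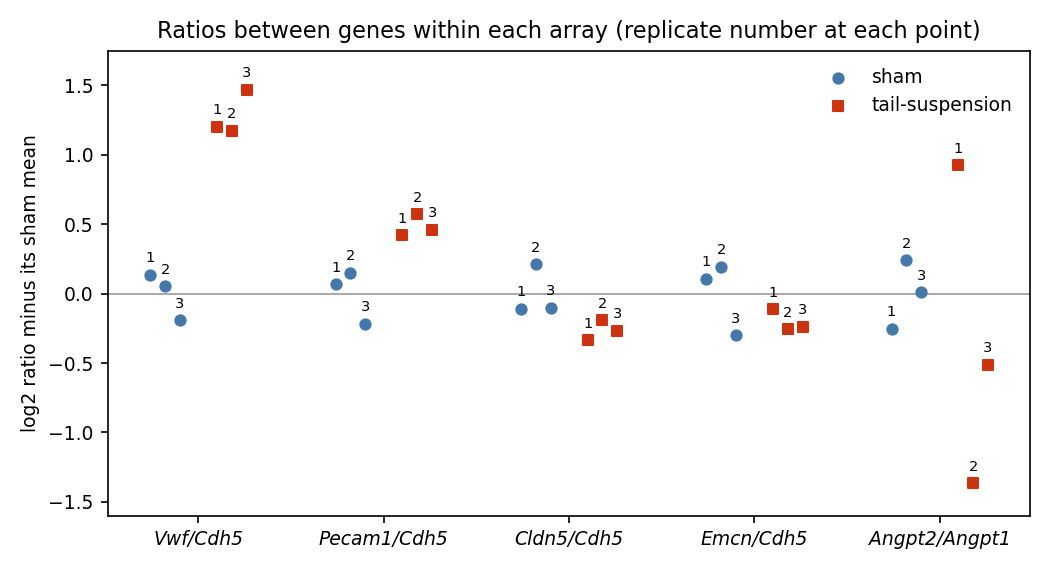
Log2 ratio of 2 genes on each array, minus the mean of that ratio over the sham arrays; numbers at the points are replicates. Vwf and Pecam1 relative to Cdh5 lie above the sham points in all 3 tail-suspended hearts, and Angpt2 relative to Angpt1 runs from -1.37 to 0.92 among them.

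Other endothelial genes, from a list of 28 that excludes the 10, moved in both directions. All 28 were tested, and 4 rose and 7 fell, where 10.5% and 10.6% of all genes did, with a median log2 fold change of -0.13. Sox17, a transcription factor of arterial endothelium, rose by 1.02 (adjusted p = 0.0110 by limma), Adgrf5, an adhesion receptor, rose by 0.97 (adjusted p = 0.00658), and Clec14a, an endothelial lectin-like receptor, rose by 0.61 (adjusted p = 0.0141, and 0.0570 without sham replicate 2). Cd93, an endothelial adhesion receptor, had intensities of 15254, 14967 and 15383 in sham and 7903, 9017 and 7930 in tail-suspension, and its log2 fold change was -1.09 (adjusted p = 0.00223 by limma). Sox7 and Myct1 fell, with log2 fold changes of -0.77 (adjusted p = 0.0217 by limma) and -0.68 (adjusted p = 0.0396), and passed in only 1 of the 6 fits with an array left out. The VEGF receptors differed in sign. Kdr, which carries most VEGF signalling, fell by 0.55 on the log2 scale (adjusted p = 0.0162 by limma; 0.0649 at most without 1 array, lost without sham replicate 1 or 2), and its other probe had a log2 fold change of -0.25 (adjusted p = 0.0745). Flt1, which also binds VEGF, had a log2 fold change of 0.36 (adjusted p = 0.0515 by limma) and passed under each of 4 other scalings. With an array left out it passed in 1 of the 6 fits (adjusted p up to 0.150). Its other probe had a log2 fold change of 0.41 (adjusted p = 0.355). Whether Kdr and Flt1 differ was not tested.

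Of 17 listed partners of the Tie receptors, 16 were tested, 2 rose and 1 fell, near the 21.1% of all genes that passed in either direction, with a median log2 fold change of 0.05. Pik3r1, the regulatory subunit of PI 3-kinase, which many receptors use, rose by 1.101 on the log2 scale (adjusted p = 0.00862 by limma). Tnip2, which binds A20 and restrains NF-kappaB, rose by 0.40 (adjusted p = 0.0245, past in 2 of the 6 fits with an array left out). Grb14, an adaptor that binds receptor kinases, had a log2 fold change of -0.57 (adjusted p = 0.0133, and 0.0583 without sham replicate 2). Ptprb, the phosphatase VE-PTP that acts on Tie2, had a log2 fold change of -0.29 (adjusted p = 0.0846), and Svep1, an extracellular protein that binds Tie1, of 0.43 (adjusted p = 0.188). Angpt4 was not well above background on all arrays of either group and was not tested.

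Genes linked to von Willebrand factor or its storage bodies, other secreted proteins among them, are of interest beside Vwf. Of 10 listed, 7 were tested, and 3 rose and none fell, but Rab27a entered only through the group where it was high. The genes to set beside the 10.5% of all genes that rose are therefore Cd63 and Mmrn1 alone. Rab27a, a GTPase of Weibel-Palade body release, had intensities of 16.0, 17.7 and 21.9 in sham and 91.5, 71.0 and 87.7 in tail-suspension. Its probe was well above background on 2 of 3 sham arrays, so it was tested only through the group where it was high, and its log2 fold change of 1.96 (adjusted p = 0.00276 by limma) is uncertain in size. Cd63, a membrane protein of these bodies, rose by 0.63 (adjusted p = 0.0276) and Mmrn1, a multimerin found in platelets and endothelium, by 0.59 (adjusted p = 0.0305), and each passed in only 1 of the 6 fits with an array left out.

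Endothelial subtypes and other cell types were followed with marker lists. Of 9 heart capillary genes, Ly6c1 (0.78) and Rgcc (0.65) rose, while Tcf15 (-0.79), Meox2 (-0.69) and Aqp1 (-0.66) fell. Of 10 arterial genes, Sox17 and Hey1 (0.56) rose and Unc5b (-0.73) fell. Of 6 venous and endocardial genes tested, Npr3 (1.104) and Nfatc1 (0.35) rose. Of 9 genes of tip cells, the cells that lead a vessel sprout, Apln (-3.70), Unc5b and Cd34 (-0.59) fell and none rose. Over these 9, 6 log2 fold changes were negative and 3 positive. Apln encodes apelin. Of 13 junction genes tested, Jam3 (-0.57) fell and none rose, and of 5 lymphatic genes tested Mmrn1 rose. These values are log2 fold changes past an adjusted p of 0.05 by limma. The counts stand beside 10.5% of all genes that rose and 10.6% that fell. The lists overlap, and Sox17, Unc5b, Cd34 and Mmrn1 were each counted in more than 1 of them. Among the genes named outside the 10, Cd93, Sox17, Adgrf5, Pik3r1, Ly6c1, Apln and Unc5b passed in each of the 6 fits with an array left out, and the others that rose or fell, Rab27a aside, were lost in at least 1 of them. All 10 cardiomyocyte markers were tested, and 1 passed the threshold (Actc1, -0.33). Over this list 9 log2 fold changes were negative and 1 positive, with a median of -0.12. The summed scaled level of these markers ranged from 5609 to 5909 in sham and from 5162 to 5237 in tail-suspension. The probes of Myh6, a cardiac myosin heavy chain, disagreed: the brightest had a log2 fold change of -0.09 (adjusted p = 0.593 by limma) and the other of -1.48 (adjusted p = 0.00921). For Car4, of the capillary list, the brightest probe had 0.02 (adjusted p = 0.946 by limma). Its other probe had 0.93 (adjusted p = 0.0163 by limma). Those of Ephb4, a venous gene, had 0.26 (adjusted p = 0.111 by limma) and 0.44 (adjusted p = 0.0468). For Jam2, of the junction list, the brightest had 0.16 (adjusted p = 0.417 by limma). Its other probes had -0.05 (adjusted p = 0.856 by limma) and -0.45 (adjusted p = 0.0324).

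Platelets also hold von Willebrand factor, and their markers are given beside Vwf. Of 10 platelet markers, 5 were tested and none passed (limma, adjusted p between 0.0670 and 0.446; 2, Gp9 and Ppbp, at an unadjusted p under 0.05), with a median log2 fold change of 0.97. Ppbp, a platelet chemokine, had intensities of 89.7, 80.5 and 88.5 in sham and 272.5, 121.6 and 267.4 in tail-suspension. Tail-suspension replicate 2 was the lowest of its group for all 5 tested platelet markers. Gp9 had a log2 fold change of 1.04 (adjusted p = 0.0771 by limma), Ppbp of 1.05 (adjusted p = 0.0670) and Pf4 of -0.22 (adjusted p = 0.446). Treml1 had a log2 fold change of 0.97 (adjusted p = 0.145) and Gp1bb of 0.50 (adjusted p = 0.148), so 4 of the 5 had positive values. Their summed level, to which the Pf4 probe gave most, ranged from 9.12 to 11.3 in sham and from 7.04 to 11.5 in tail-suspension. Itga2b, Gp1ba, Gp5, Gp6 and Tubb1 were not well above background on all arrays of either group. Without tail-suspension replicate 2, 4 platelet markers passed, and Vwf remained higher with every array left out. Their part in the rise of Vwf was not tested. Of 14 genes of pericytes and smooth muscle, the cells that surround vessels and make Angpt1, Vtn (-0.59) and Kcnj8 (-0.56) fell and none rose. Of all genes, 10.6% fell and 10.5% rose. The log2 fold changes of the 14 were positive for 7 and negative for 7, with a median of -0.04. Over 5 red cell markers tested the median was -1.50 on the log2 scale, with 4 negative values and 1 positive, from -1.62 to 0.68. Only Hba-a1 passed the threshold (adjusted p = 0.0496 by limma), and it did so in 1 of the 6 fits with an array left out. Of 9 fibroblast genes Col3a1 (-1.88) fell, with 6 negative and 3 positive log2 fold changes over the list. Among leukocyte genes Ptprc (0.47) rose and Cd79a (-0.87) fell, both at low intensities, 65.2 to 124.5 and 19.1 to 43.8 over the arrays. Over the 7 leukocyte genes tested, 3 log2 fold changes were positive and 4 negative. The probes of Itgam disagreed, and the brightest had a log2 fold change of -0.20 (adjusted p = 0.538 by limma). Its other probes had 0.15 (adjusted p = 0.549 by limma) and 0.71 (adjusted p = 0.0244 by limma). The part of these shifts in the 4 falls was not tested.

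**Figure D4:**
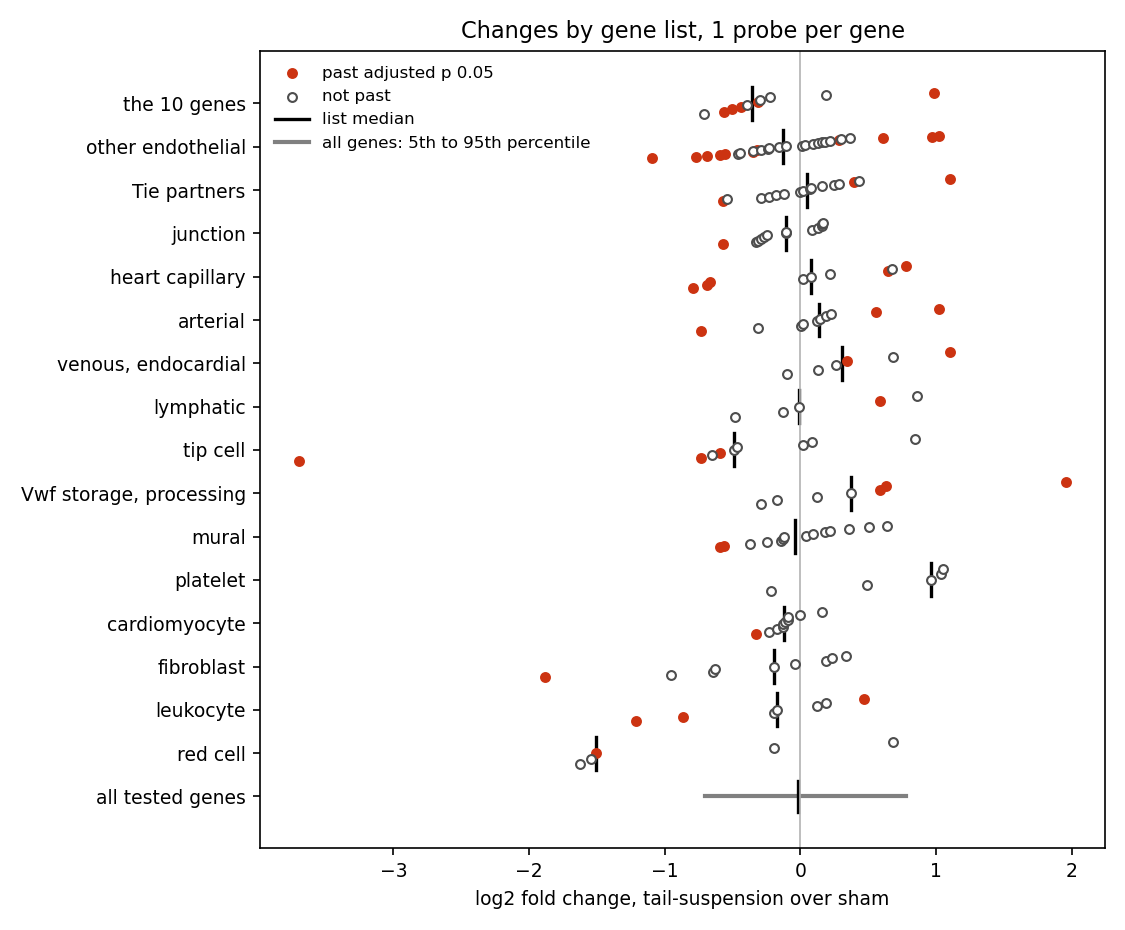
Log2 fold change, tail-suspension over sham, of each tested gene in the marker and pathway lists, 1 point per gene; filled points passed an adjusted p of 0.05 (limma), vertical bars are list medians, and the grey line spans the 5th to 95th percentile of all genes. The 10 genes have a median of -0.35 with Vwf at 0.99 on the other side of 0, and the other endothelial genes spread on both sides.

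Over the 6 arrays, the gene whose level was most like that of Tek was Tsnax (Pearson r = 0.991), followed by an unnamed transcript (0.991) and Cngb1 (0.989). For Angpt2 these were Dcp2 (0.990), Stx6 (0.988) and Enoph1 (0.987). With 6 arrays in 2 groups and 17140 genes to choose from, these are descriptions. Gapdh, used to check the scaling, had a log2 fold change of -0.04 (limma: SE 0.10, adjusted p = 0.818).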

How the data were processed

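The deposited array files hold, per the file headers, processed intensity from Agilent Feature Extraction 10.7.1.1, 1 file per mouse heart. The authors also deposited log2 values, whose correlation with the log2 intensity was 0.999 on each array. Their exact normalization is not given in the sources used here. Control spots and 146 to 212 outlier spots per array were left out, and no spot was saturated. From each log2 intensity, the array's 75th percentile over spots (300.01 to 375 in intensity) was subtracted, and spots of 1 probe were averaged. Between 50.9% and 53.4% of probes were well above background (at least 50% of a probe's spots), and limma 3.58.1 in R 4.3.3 was run on probes that were so in all 3 arrays of a group, with all 6 arrays and without covariates. The brightest of a gene's tested probes stood for the gene. Probes named only by a genomic region were not counted as genes.

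The genes and lists were chosen with earlier results of these data known. Named are all 10 genes, up to 3 genes past the threshold with the largest change in each direction of a list, Angpt4, Ptprb, Svep1, Kdr, Flt1, Gapdh and the 3 genes most like Tek and most like Angpt2. The platelet markers, the second probe of Myh6, and Car4, Ephb4, Jam2 and Itgam were named after their values were seen. In 6 cases an older symbol on the array was matched through RefSeq. The number of arrays limits the precision. The test was tried on simulated data. The alternatives were normexp with an offset of 50, quantile normalization, other percentiles, the authors' log2 values, other filters, outlier spots kept, an intensity trend, array weights, the methods' t-test, blocks for replicate number and slide row, another probe per gene, and each array left out. After the data were seen, 2 choices were varied in addition: whether the percentile runs over spots or over averaged probes, which were both run before the first was kept, and whether region-named probes count as genes, which the first run had counted. A result for 1 gene of the leukocyte list is not reported here.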

Additional observations from a re-analysis of the deposited data

How the results depend on the processing

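Vwf was the only 1 of the 10 genes that was higher past the threshold in each alternative, and no gene of the 10 changed direction in any. A change of direction was possible only where the fold change itself was altered. The other filters on dim probes, the intensity trend, the t-test and the replicate block left the fold changes of the 10 as they were. The count of the 10 that fell, 4, was 0 without a filter on dim probes, 1 with the replicate block, 0 with the slide row as a block, 1 by the methods' t-test, and 0 to 3 with 1 array left out. Over all genes, 1794 higher and 1814 lower became 2701 and 2907 with array weights, 641 and 543 without the filter, 1038 and 947 with the replicate block, 211 and 117 with the row block, and 905 and 876 by the t-test after adjustment; with 1 array left out they ran from 628 to 1799 and from 538 to 1747. Of the other endothelial genes, 4 higher and 7 lower became 2 and 1 without the filter, 0 and 1 with the row block, 2 lower with the replicate block and 3 lower by the t-test, and 2 to 4 and 1 to 5 with 1 array left out. Of the Tie partners, 2 higher and 1 lower became 1 and 0 without the filter and 0 and 0 with the row block; 4 were higher with array weights and 1 with the replicate block, 3 were lower with the intensity trend and 2 with normexp, and 1 to 3 and 1 to 1 passed with 1 array left out. The cause was not tested. Replicates share only a number: deviations of same-numbered arrays correlated at -0.02, -0.02 and 0.05.

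Taking the percentile over averaged probes, chosen after seeing the data, gave 1728 higher and 1806 lower genes and the same counts for the 10.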
